A study of Mus musculus with 9 samples.

Results

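A set of 10 imprinted genes was followed, namely H19, Mir675, Igf2, Igf2r, Slc38a4, Phlda2, Ascl2, Rasgrf1, Gnas and Osbpl5. They were taken by gene name from the epidermal table and chosen by their normalized reads there, which differed between the 2 Mi2 and 2 WT keratinocyte libraries, so their epidermal differences are given as a description and no test of them is used as a result. All 10 of 10 were found among the 36442 genes of the epidermal table, and all 10 are also named in the table of regulatory T cells (Tregs), which holds 24016 gene symbols. Imprinted genes are expressed mainly from the chromosome inherited from 1 parent, under the control of DNA regions that are methylated on the maternal or the paternal copy. Many of them act on growth before birth, and several are turned down after birth in most tissues. H19 and Igf2 share a control region and enhancers on distal chromosome 7, where H19 is transcribed from the maternal and Igf2 from the paternal copy.

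The series has 9 mouse RNA-sequencing libraries made from cells purified by flow sorting. The epidermal groups were keratinocytes of adult skin labelled Mi2 (2 libraries, KO in the column names) and WT (2 libraries), and the Treg groups came from lymph nodes that drain the skin, labelled TSLPR-negative Treg from Mi2 mice (1 library, TMDKO in the column name), TSLPR WT Treg from Mi2 mice (2 libraries, Mi2KO) and Ctl Treg (2 libraries, WT). The column names call these cells skin Tregs, while the labels give lymph nodes. Mi2 refers to Mi-2β, the chromatin-remodelling ATPase encoded by Chd4, and TSLPR is the receptor for the cytokine TSLP. The labels give no strain, age, sex, Cre driver or allele, and they do not say whether replicates came from separate mice, so p-values here measure only the spread between these libraries, which may be technical.

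Values are the authors' normalized read counts, called normalized reads below. The epidermal libraries held 5682391 to 8913804 reads and the Treg libraries 21849381 to 32238992 reads over genes. Chd4 had 734 and 1207 normalized reads in Mi2 epidermis, against 1607 and 1942 in WT epidermis (log2 change -0.91 ± 0.27 SE, limma, adjusted p = 0.0456). That call ended under 6 of 12 alternative settings, among them leaving out Mi2 replicate 1 or either of the WT pair (adjusted p = 0.0995, 0.123 and 0.213 by limma), and the labels do not say which part of the gene the knockout removes. All 8 keratinocyte markers were above 0 in every epidermal library, with summed levels of 289910 and 243390 normalized reads in Mi2 and 277100 and 255660 in WT. Among them Krt15 and Krt1 fell, and Krt15 had 4202 and 8781 normalized reads in Mi2 against 49093 and 40508 in WT. Foxp3, the defining transcription factor of Tregs, had 13460 normalized reads in the TSLPR-negative library, 13778 and 14517 in the TSLPR WT Mi2 libraries and 11159 and 15371 in the Ctl libraries. In bulk libraries, a change in the number of cells of a type and a change in RNA per cell cannot be told apart.

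Mir675 is the microRNA gene inside H19, and its mature sequences are shown because it is the only small RNA of the set and its reads in these libraries come from the longer H19 transcript. In RefSeq (GRCm38.p6), the hairpin lies on the minus strand at chr7:142577064-142577147 and is 84 bases long. The seed, bases 2 to 8 of each arm, is in capitals.
mmu-miR-675-5p: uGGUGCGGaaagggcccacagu
mmu-miR-675-3p: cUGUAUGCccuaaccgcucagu
In the hairpin, capitals mark both mature arms.
mmu-mir-675 hairpin: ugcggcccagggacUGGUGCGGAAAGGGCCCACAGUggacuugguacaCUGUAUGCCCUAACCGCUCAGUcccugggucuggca
Neither seed was shared with any of the other mature mouse miRNAs among the 1738 in the RefSeq table. The libraries are of long RNA, so they do not measure the mature arms.

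Of the 10 genes, 7 were higher and 3 were lower in Mi2 epidermis, and in all 10 the Mi2 and WT libraries did not overlap. By limma all 10 also fell under an adjusted p of 0.05, where 28.2% of the 14461 genes tested did so (15.1% higher and 13.1% lower) and 70.7% had groups that did not overlap. Since these values chose the genes, nothing is read from those counts. H19, Mir675, Igf2, Igf2r, Slc38a4, Phlda2 and Gnas were the higher ones, and Ascl2, Rasgrf1 and Osbpl5 the lower ones.

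**Figure D1:**
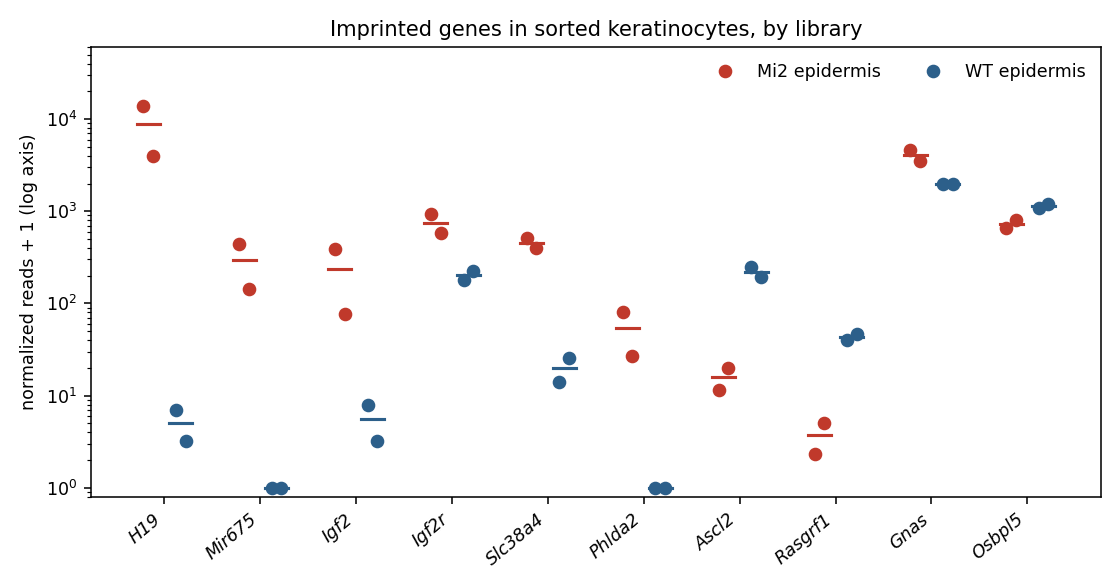
Normalized reads + 1 (log axis) of each of the 10 genes in the 2 Mi2 (left, red) and 2 WT (right, blue) epidermal libraries, with replicate 1 left of replicate 2 and a line at the mean of each pair. H19 shows the widest gap, with 13784 and 4004 normalized reads in Mi2 against 5.95 and 2.18 in WT.

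H19, the maternally expressed long noncoding RNA, had 13784 and 4004 normalized reads in the Mi2 libraries, against 5.95 and 2.18 in the WT libraries. These were 10389 and 2939 recovered reads in Mi2 and 6 and 3 in WT, so the gene was abundant in both Mi2 libraries and near the limit of detection in both WT libraries. The ratio of pooled, scaled reads was 2374 (95% exact counting interval 1250.3 to 5193), and the log2 change was 10.63. Counting intervals and floors cover counting error only, since the reads carry no molecular identifiers. Mir675 had 440.5 and 143 normalized reads in Mi2 and 0 reads in both WT libraries, which allow up to 3 reads each. Against that floor it was at least 113-fold higher in Mi2. Mir675 reads amounted to 3.2% and 3.57% of the H19 value in the Mi2 libraries, beside 3.21% of the H19 span taken by the hairpin, and since both genes share these reads the value of Mir675 is not a second measurement.

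Igf2 encodes insulin-like growth factor 2, a fetal growth factor expressed from the paternal copy. Its level was 391 and 74.9 normalized reads in Mi2, against 6.95 and 2.18 in WT. Both Mi2 libraries stood above both WT libraries, and replicate 1 was 5.22 times replicate 2 within Mi2, the widest gap among the 7 higher genes. The ratio of pooled reads was 56.1 (95% exact counting interval 30.15 to 118). Igf2os, an antisense transcript that overlaps Igf2, had 15.9 and 1.36 normalized reads in Mi2 and 0 in WT. No strand setting is given for the counting, so reads of Igf2 and Igf2os cannot be told apart.

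Igf2r, the maternally expressed receptor that takes IGF2 to lysosomes for breakdown and also sorts lysosomal enzymes, had 925 and 582 normalized reads in Mi2, against 179 and 221 in WT. The Mi2 mean of 753 ± 243 (SD, n = 2) was 3.77 times the WT mean of 200.02 ± 30.3 (SD, n = 2). Unlike H19 and Igf2, it was already well above detection in WT. Airn, the paternally expressed antisense RNA that silences Igf2r in the mouse, had 14.6 and 6.81 normalized reads in Mi2 against 0 and 1.45 in WT, under the mean of 10 needed for a test. Airn overlaps Igf2r on the opposite strand, so part of either count may belong to the other.

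Slc38a4 encodes a sodium-coupled amino acid transporter, paternally expressed and prominent in placenta and liver. It had 509 and 395 normalized reads in Mi2, against 12.9 and 24.7 in WT. The Mi2 libraries were close to each other, and the ratio of means was 24.1. Phlda2, a maternally expressed gene with a pleckstrin-homology-like domain that restrains placental growth, had 79.6 and 25.9 normalized reads in Mi2 and 0 reads in both WT libraries. Against the floor of 3 reads in each WT library it was at least 20.5-fold higher in Mi2.

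Gnas encodes the stimulatory G protein subunit that couples receptors to adenylyl cyclase, within a locus of several promoters of which some are imprinted. It had 4568 and 3536 normalized reads in Mi2, against 1964 and 1977 in WT. Both WT libraries were alike and both Mi2 libraries were above them, with a ratio of means of 2.06. The epidermal table counts reads per gene, so the Gnas promoters were not separated there.

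Ascl2, a basic helix-loop-helix transcription factor, maternally expressed in placenta and active in intestinal stem cells, had 10.6 and 19.1 normalized reads in Mi2, against 245 and 190.2 in WT. The ratio of the Mi2 to the WT mean was 0.0682. Rasgrf1, a paternally expressed exchange factor that activates Ras, had 1.33 and 4.09 normalized reads in Mi2, against 38.7 and 45.7 in WT. With 4 reads in Mi2 and 102 in WT over both libraries, the WT to Mi2 ratio was 15.9 (95% exact counting interval 6.03 to 59.5). Osbpl5, which encodes an oxysterol-binding-protein-related lipid carrier and is imprinted in mouse placenta, had 651 and 812 normalized reads in Mi2, against 1088 and 1204 in WT. The ratio of the Mi2 to the WT mean was 0.6385, a log2 change of -0.65 beside 1.03 for Gnas. With mitochondrial genes left out of the scaling these were -0.89 for Osbpl5 and 0.79 for Gnas, so which of the 2 differed least depends on the scaling.

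The 7 higher genes were all higher in Mi2 replicate 1 than in Mi2 replicate 2. The ratio of replicate 1 to replicate 2 was 5.22 for Igf2, 3.44 for H19, 3.08 for Mir675 and for Phlda2, 1.59 for Igf2r and 1.29 for Slc38a4 and for Gnas. The median of that ratio was 1.02 over all genes tested and 1.23 over the genes called higher in Mi2. Among the lower genes it was 0.557 for Ascl2, 0.325 for Rasgrf1 and 0.802 for Osbpl5, so these too lay farther from WT in replicate 1. The ratio rests on 8 and 14 recovered reads for Ascl2. For Rasgrf1 it rests on 1 and 3, at or under the floor of 3 reads, so it is uncertain for both genes. No median of the ratio was taken over the genes called lower. Mitochondrially encoded genes took 29.7% of reads in Mi2 replicate 1 and 15.5% in Mi2 replicate 2, against 13.8% and 12.9% in WT, and their part in the difference between the Mi2 replicates was not tested.

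Markers of other cells that a sort of epidermis could hold were also counted. Summed levels of the 8 fibroblast markers were 84.9 and 9.54 normalized reads in Mi2, against 179 and 35.6 in WT, and the 5 endothelial markers reached 9.29 and 5.45 in Mi2 and 0 in WT. The 6 Langerhans and dendritic cell markers summed to 1590 and 1958 normalized reads in Mi2, against 621 and 643 in WT. A large part of each of these 4 sums was Epcam alone, with 1095 and 1053 normalized reads in Mi2 against 299 and 340 in WT. The 5 erythroid markers summed to 211 and 376 normalized reads in Mi2, against 858 and 2754 in WT, and 4 of the 5 fell by limma, among them the globin gene Hba-a1 (adjusted p = 0.0133, named after its values were seen). The 7 Treg markers summed to 340 and 425 in Mi2, against 887 and 1131 in WT, with 1 of the 2 tested lower. Only 2 of these 7 were above 0 in every epidermal library, and 2 were at 0 in all of them. The 5 T-lymphocyte markers found summed to 2.65 and 4.09 in Mi2, against 12.9 and 10.2 in WT, and 0 of them could be tested. The Treg sum is thus not a measure of T cells in the sort. The part of any of these cells in the levels of the 10 genes was not tested.

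Compared per kilobase of the transcript length listed in the Treg table, H19 was the most abundant of the genes in Mi2 replicate 1, with 5270 normalized reads per kb beside 2640 for Gnas. In Mi2 replicate 2 Gnas came first, with 2040 per kb beside 1530 for H19. That order depends on the Gnas transcript used, here of 1732 bases, while its listed lengths run from 1439 to 3746 bases. The longest would put H19 first there as well. In both WT libraries Gnas came first with 1130 and 1140 per kb and Osbpl5 second with 274 and 303, while H19 had 2.28 and 0.833.

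By distance of centred log2 levels over the 4 epidermal libraries, the 5 genes nearest to H19 of 13109 with a mean of at least 20 were Sprr1b, Pi15, Padi3, BC100530 and Sprr2h. Sprr1b, a precursor of the cornified envelope, was at a distance of 1.02 and had 3252 and 1752 normalized reads in Mi2, against 2.98 and 0.726 in WT. Pi15, a secreted protease inhibitor family member, was at 1.69, with 1661 and 702 in Mi2 against 0 and 0.726 in WT. None of the 5 is on the list of imprinted genes, and the ranking rests on 4 libraries.

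Of the 10 genes, 6 lie on distal chromosome 7 within 1166.4 kb of each other. In mm9, as the Treg table gives it, H19 is at chr7:149761437-149764051 with Mir675 inside it, Igf2 at chr7:149836673-149846940, Ascl2 at chr7:150152727-150155169, Phlda2 at chr7:150687453-150688429 and Osbpl5 at chr7:150874667-150927868, all on the minus strand. H19 and Igf2 belong to the first imprinting-control domain of this region, and Ascl2, Phlda2 and Osbpl5 to the Kcnq1ot1 domain beside it. The other genes are Igf2r at chr17:12875272-12962572, Slc38a4 at chr15:96825254-96886387, Rasgrf1 at chr9:89804613-89921817 and Gnas at chr2:174109821-174172243. Within the chromosome 7 block the direction was mixed, with H19, Mir675, Igf2 and Phlda2 higher and Ascl2 and Osbpl5 lower in Mi2.

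**Figure D2:**
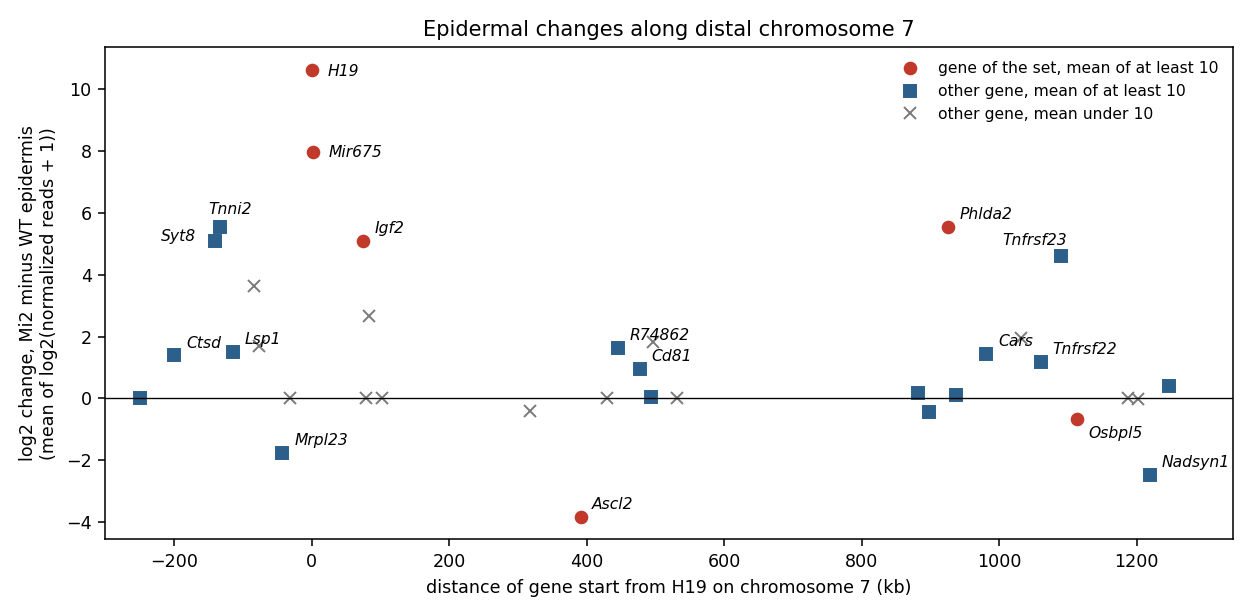
Epidermal log2 change (Mi2 minus WT, mean of log2(normalized reads + 1)) of each gene of distal chromosome 7 against the distance of its start from H19 in kb. Red circles are the genes of the set, blue squares its neighbours with enough reads for the test (mean of 10 or more) and grey crosses the remaining neighbours. H19 stands at 10.63 and Ascl2 at -3.83, and the neighbours along the whole stretch include higher, lower and near-zero ones.

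The neighbours of these genes on chromosome 7 were tested, since their values did not choose the set. Their lists, like the other gene lists used below, were drawn up with earlier results of these data known. The shares called in these lists are therefore a description. Of the listed neighbours of the H19 domain, 7 of 12 could be tested, of which 3 rose and 1 fell. That is 57.1% called beside 28.2% of all genes, with a median log2 change of 1.39 beside -0.0293. Syt8, a synaptotagmin-family gene whose start lies at -140.56 kb from that of H19, had 265 and 176 normalized reads in Mi2, against 3.97 and 7.26 in WT (log2 change 5.08 ± 0.42 SE, limma, adjusted p = 8.84e-04). Tnni2, which encodes fast skeletal muscle troponin I, had 58.4 and 35.4 normalized reads in Mi2 and 0 in WT (at least 18.2-fold higher, limma, adjusted p = 0.00279). Beside it, the 8 muscle markers summed to 87.6 and 77.6 normalized reads in Mi2 and 37.7 in each WT library, and their part in the Tnni2 value was not tested. Ctsd, the lysosomal protease cathepsin D, rose 2.63-fold (log2 change 1.39 ± 0.21 SE, limma, adjusted p = 0.00526). Mrpl23, a mitochondrial ribosomal protein gene at -42.4 kb, fell to 23.9 and 13.6 normalized reads in Mi2, against 77.4 and 51.5 in WT (limma, adjusted p = 0.0245). The Mrpl23 call ended without WT replicate 1 (adjusted p = 0.229) or WT replicate 2 (adjusted p = 0.0868).

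In the Kcnq1ot1 domain, 10 of the 16 listed genes outside the set could be tested, of which 4 rose and 1 fell. That is 5 of 10 called, beside 28.2% of all genes, with a median log2 change of 0.29. The same limit of the list applies to this share. Tnfrsf23, a decoy receptor of the tumour necrosis factor receptor family that lies next to Osbpl5, had 415 and 360 normalized reads in Mi2, against 11.9 and 18.9 in WT. It rose 25.2-fold (log2 change 4.60 ± 0.32 SE, limma, adjusted p = 6.9e-04). That change was larger in size than those of Ascl2 and Rasgrf1 in the set and close to that of Slc38a4 (log2 change 4.57). Its neighbour Tnfrsf22 rose 2.31-fold (adjusted p = 0.0216) and Cars, a cysteinyl-tRNA synthetase gene, rose 2.76-fold (adjusted p = 0.00532), both by limma. Cd81, a tetraspanin gene, rose as well (log2 change 0.95 ± 0.26 SE, limma, adjusted p = 0.0358). Nadsyn1, an enzyme of NAD synthesis, fell to 3.98 and 4.09 normalized reads in Mi2, against 21.8 and 33.4 in WT (limma, adjusted p = 0.0173). Cdkn1c, the cyclin-dependent kinase inhibitor of this domain, had 17.2 and 5.45 normalized reads in Mi2 against 7.94 and 9.44 in WT and did not pass the test (log2 change 0.17 ± 0.68 SE, limma, adjusted p = 0.869). The Tnfrsf23 call held under all 12 alternatives, while that of Tnfrsf22 ended without Mi2 replicate 1 or either of the WT pair (adjusted p = 0.0525, 0.139 and 0.144) and that of Cd81 under 6 of 12 alternatives, these 3 included (adjusted p = 0.0597, 0.137 and 0.166). Without WT replicate 1 the calls of Cars (adjusted p = 0.0509) and Nadsyn1 (adjusted p = 0.13) ended too.

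Over a wider stretch of 1522.3 kb, chosen after the values were seen, 17 of 30 genes outside the set were tested. Of these 7 rose, 2 fell and 8 did not pass, a share of 52.9% called beside 28.2% over all genes. The 9 genes called are those already named in both domains above, so this count repeats them and adds no further call.

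The promoters of Phlda2 and Ascl2, genes of 1 domain that differed in direction, are printed from RefSeq (GRCm38.p6), from 250 bases before to 50 after the start. GC boxes (GGGCGG, either strand) and TATA boxes (TATAAA, either strand) are in capitals.
Phlda2 promoter (minus strand, chr7:143502475-143502774): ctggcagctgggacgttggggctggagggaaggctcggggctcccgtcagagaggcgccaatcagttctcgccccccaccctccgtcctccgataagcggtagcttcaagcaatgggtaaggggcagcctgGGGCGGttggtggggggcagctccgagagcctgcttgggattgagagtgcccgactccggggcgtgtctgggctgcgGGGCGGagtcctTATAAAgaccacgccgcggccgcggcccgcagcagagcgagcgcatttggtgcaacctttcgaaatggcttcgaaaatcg
Ascl2 promoter (minus strand, chr7:142969215-142969514): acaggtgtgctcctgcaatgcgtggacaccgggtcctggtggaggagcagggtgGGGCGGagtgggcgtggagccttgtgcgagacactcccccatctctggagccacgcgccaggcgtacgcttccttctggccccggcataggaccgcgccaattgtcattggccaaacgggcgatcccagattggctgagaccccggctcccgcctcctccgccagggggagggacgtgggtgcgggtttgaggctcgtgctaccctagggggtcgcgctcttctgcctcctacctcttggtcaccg
The Phlda2 window held 2 GC boxes, 1 TATA box and 26 CG dinucleotides, and the Ascl2 window 1 GC box, 0 TATA boxes and 23 CG dinucleotides. Among 32817 mouse promoter windows of this length, 35.6% held a GC box and 13.6% a TATA box, and the median was 7 CG dinucleotides. RefSeq windows were found for 8 of the 10 genes, and 11 of their 18 windows held a GC box and 5 a TATA box. The windows with a TATA box came from Gnas, Slc38a4 and Phlda2 alone. Those of Gnas at chr2:174327499-174327798 and chr2:174327518-174327817 overlap, so windows are not independent and their counts are not read against all promoters. A match of letters is a description and not a binding site.

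A list of 72 imprinted genes contained 62 outside the set, of which 56 were in the epidermal table and 23 could be tested. Among these 23, 3 rose, 1 fell and 19 did not pass, so 17.4% were called beside 28.2% of all genes, with a median log2 change of 0.12 beside -0.0293. The set was taken out for its differences in these same libraries, which lowers this share. With the set kept, 14 of 33 were called (42.4%), a count that includes the 10 genes chosen on these values. Neither share is therefore read against that of all genes. Outside the set, the 3 that rose were Tnfrsf23, Cd81 and H13. H13, a signal peptide peptidase gene, had 600 and 539 normalized reads in Mi2, against 278 and 295 in WT (log2 change 0.99 ± 0.19 SE, limma, adjusted p = 0.0119). Copg2, a coat protein subunit of vesicle transport, fell to 135 and 199 normalized reads in Mi2, against 329 and 374 in WT (log2 change -1.09 ± 0.25 SE, limma, adjusted p = 0.0202). Without WT replicate 1 or WT replicate 2 the calls of H13 (adjusted p = 0.12 and 0.0846) and Copg2 (adjusted p = 0.109 and 0.15) ended, and that of Copg2 also without the intensity trend. Peg3, a zinc-finger gene expressed from the paternal copy, had 38.5 and 40.9 normalized reads in Mi2 against 24.8 and 18.9 in WT and did not pass (limma, adjusted p = 0.133), and it was chosen after its values were seen.

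**Figure D3:**
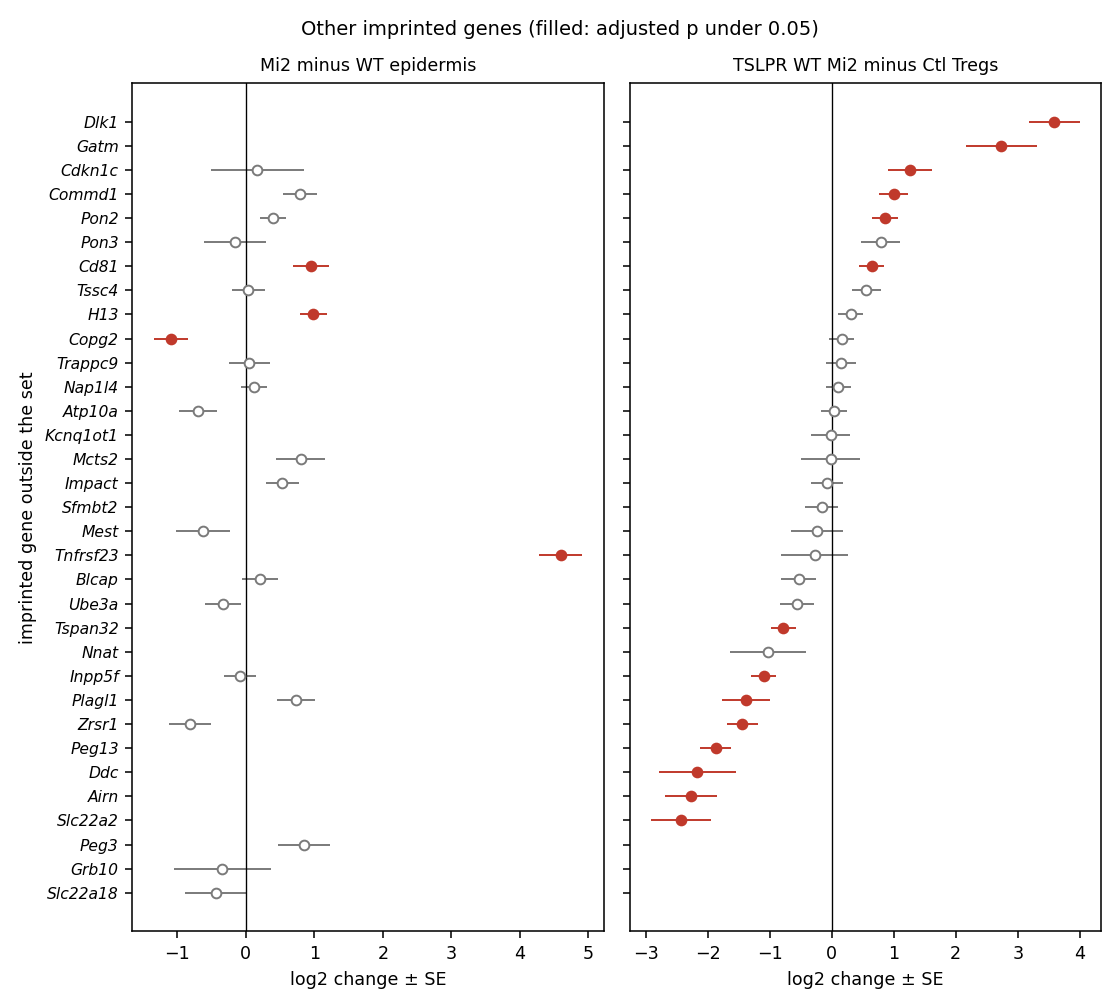
Log2 change ± SE of imprinted genes outside the set, in Mi2 minus WT epidermis (left) and in TSLPR WT Mi2 minus Ctl Tregs (right), with filled points at an adjusted p under 0.05 by limma. In epidermis 4 of 23 points are filled, of which Tnfrsf23 at 4.60 is the farthest from 0, and in Tregs 14 of 30 are filled, with Dlk1 at 3.59 the highest.

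The machinery that sets and keeps imprints was listed as 25 genes, of which 20 could be tested in epidermis. Of these 2 rose and 1 fell, which is 15.0% called beside 28.2% of all genes. Tet1, an enzyme that oxidizes methylated cytosine, fell to 3.98 and 4.09 normalized reads in Mi2, against 28.8 and 33.4 in WT (limma, adjusted p = 0.0113). Dnmt3b, a de novo DNA methyltransferase, had 87.6 and 49.0 normalized reads in Mi2, against 16.9 and 27.6 in WT (limma, adjusted p = 0.0372), and its call ended under 7 of 12 alternatives, among them without Mi2 replicate 1 or either of the WT pair (adjusted p = 0.107, 0.228 and 0.081). Zfp568, a zinc-finger protein that represses an Igf2 placental promoter in the mouse, rose 2.16-fold (limma, adjusted p = 0.0236), and its call ended without Mi2 replicate 1 or either of the WT pair (adjusted p = 0.0579, 0.198 and 0.107) or with mitochondrial genes left out of the scaling. Tet1 lost its call without WT replicate 1 or WT replicate 2 (adjusted p = 0.13 and 0.15). Dnmt1, the maintenance methyltransferase, had 1519 and 1259 normalized reads in Mi2 against 874 and 918 in WT and missed the threshold (limma, adjusted p = 0.0506), which it passed without Mi2 replicate 2 (adjusted p = 0.0232), with DESeq2 (0.0431) and with the replicate block (0.0419).

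The insulin-like growth factor pathway works through the ligands IGF1 and IGF2, the signalling receptors IGF1R and INSR, the clearance receptor IGF2R and binding proteins that hold the ligands outside the cell. Apart from Igf2 and Igf2r, 16 of its 20 listed genes could be tested in epidermis, of which 6 rose, 3 fell and 7 did not pass. That is 56.2% called beside 28.2% of all genes, with a median log2 change of 0.43. This list too was drawn up with earlier results of these data known, so the share is a description. Igfbp3, the main carrier of these factors in blood, fell to 249 and 620 normalized reads in Mi2, against 6510 and 7906 in WT (log2 change -4.19 ± 0.40 SE, limma, adjusted p = 0.00129). Igfbp4 rose to 2372 and 1323 normalized reads in Mi2, against 216 and 282 in WT (log2 change 2.84 ± 0.30 SE, limma, adjusted p = 0.00184). Igfbp2 rose to 709 and 140.3 normalized reads in Mi2, against 9.92 and 6.53 in WT (log2 change 5.12 ± 0.70 SE, limma, adjusted p = 0.00403). The binding proteins thus moved in both directions. No Mi2 library overlapped a WT library in these 3 genes, as in 70.7% of all genes tested.

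Igf2bp1, an RNA-binding protein of fetal tissues that binds Igf2 and H19 transcripts, had 43.8 and 27.2 normalized reads in Mi2 and 0 in WT (at least 13.8-fold higher, limma, adjusted p = 0.00412). Its relative Igf2bp2 rose 8.26-fold (limma, adjusted p = 0.0112) and Igfbp6 and Igfbp7 rose as well (adjusted p = 0.0279 and 0.0372). The insulin receptor gene Insr (log2 change -1.05, adjusted p = 0.0368) and the adaptor gene Irs1 (log2 change -1.77, adjusted p = 0.0158) fell by the same limma fit. These 5 genes were named after their values were seen, and each call ended without WT replicate 1, with an adjusted p of 0.133 for Insr, 0.0651 for Irs1, 0.0696 for Igf2bp2, 0.154 for Igfbp6 and 0.0917 for Igfbp7. Without WT replicate 2 all of these but Igf2bp2 ended as well (adjusted p of 0.188, 0.0697, 0.0687 and 0.14 for Insr, Irs1, Igfbp6 and Igfbp7), and without Mi2 replicate 1 those of Insr (0.0624) and Igfbp7 (0.0602). Igf1r, the main signalling receptor, had 621 and 440.0 normalized reads in Mi2 against 324 and 439 in WT and did not pass (log2 change 0.47 ± 0.26 SE, limma, adjusted p = 0.20).

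**Figure D4:**
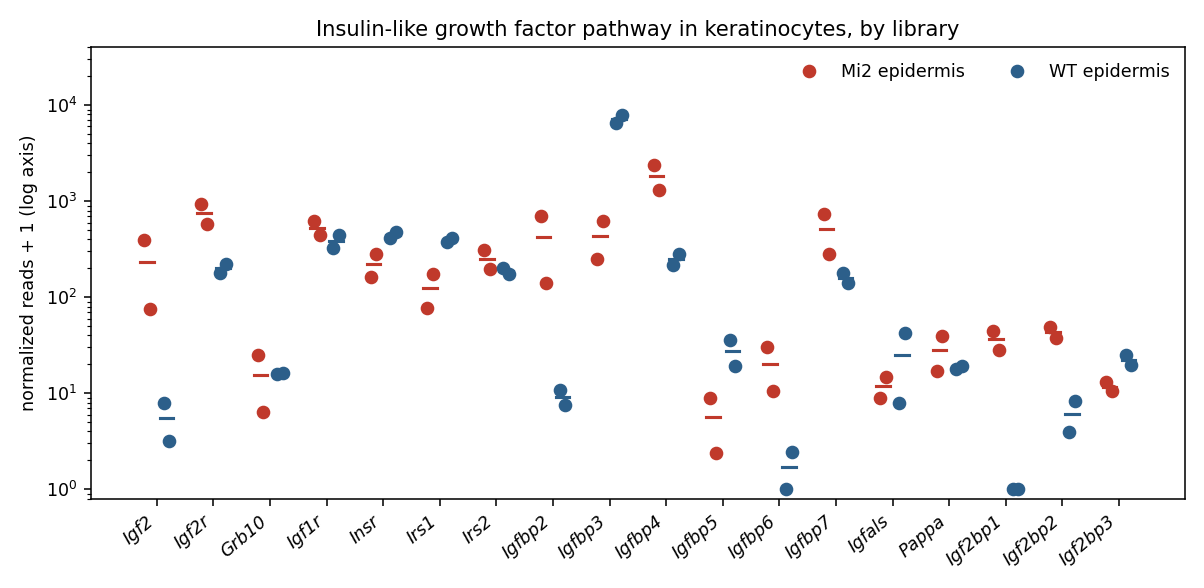
Normalized reads + 1 (log axis) of the 18 insulin-like growth factor pathway genes that could be tested in epidermis, Mi2 (left, red) and WT (right, blue), with replicate 1 left of replicate 2 and a line at the mean of each pair. Igfbp3 lies lower in Mi2, while Igf2, Igfbp2, Igfbp4 and Igf2bp1 lie higher, with no overlap between the groups in these 5 genes.

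In Tregs the 10 genes were measured in separate libraries that played no part in choosing them, and each was tested in 1 limma fit over all Treg libraries. The Treg and epidermal tables were normalized separately, so their levels are not set against each other. Of the 10 genes, 5 reached the mean of 10 needed for the test, namely Igf2, Igf2r, Rasgrf1, Gnas and Osbpl5. Mir675 and Slc38a4 had 0 reads in all 5 libraries, where 3 reads correspond to 2.41 to 3.55 normalized reads. H19 had 0.84 normalized reads in the TSLPR-negative library, 0 and 1 in the TSLPR WT Mi2 libraries and 0 and 0.8 in the Ctl libraries. Phlda2 had 0 in the TSLPR-negative library, 1.76 and 5.97 in the TSLPR WT Mi2 libraries and 0 in both Ctl libraries. Ascl2 had 0 in the TSLPR-negative library, 0.88 and 0 in the TSLPR WT Mi2 libraries and 1.18 and 9.62 in the Ctl libraries. These 5 genes were thus at or near the limit of detection in each group, and no difference between groups could be detected for them at this depth.

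**Figure D5:**
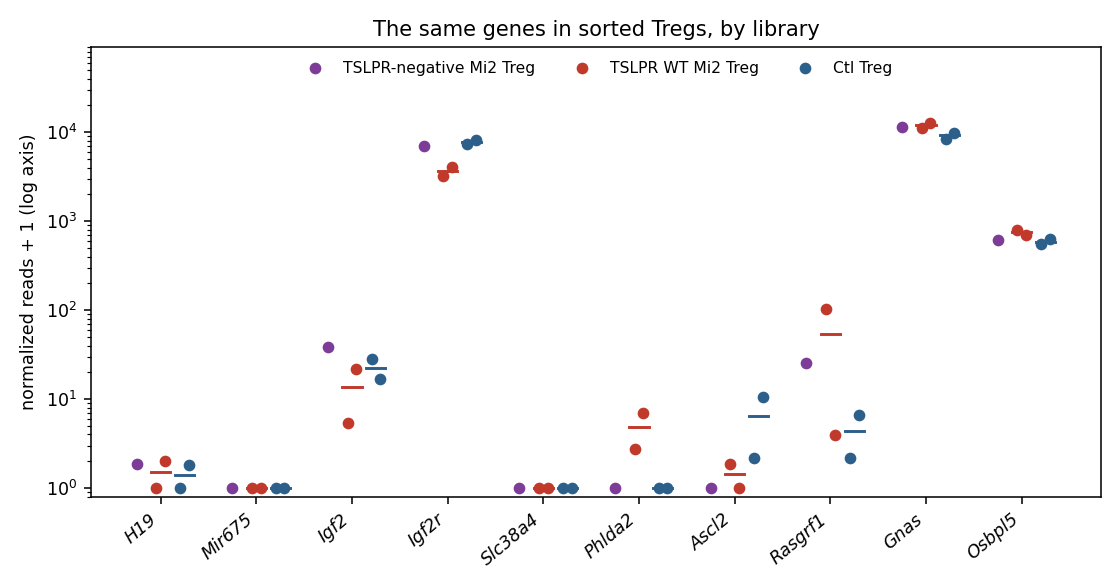
Normalized reads + 1 (log axis) of the 10 genes in sorted Tregs, in the TSLPR-negative Mi2 library (purple), the 2 TSLPR WT Mi2 libraries (red) and the 2 Ctl libraries (blue), with a line at the mean of each pair. Igf2r is lower in both TSLPR WT Mi2 libraries than in the other 3, and Mir675 and Slc38a4 lie at 0 throughout.

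In TSLPR WT Mi2 against Ctl Tregs, 1 of the 5 tested genes passed, beside 27.7% of all 12206 genes. Igf2r fell, with 3214 and 4037 normalized reads in TSLPR WT Mi2 Tregs, against 7368 and 8119 in Ctl Tregs. The groups did not overlap, as in 65.6% of all genes tested. The ratio of the TSLPR WT Mi2 to the Ctl mean was 0.468 (log2 change -1.10 ± 0.21 SE, limma, adjusted p = 0.00128). The TSLPR-negative library had 6918 normalized reads of Igf2r, between the TSLPR WT Mi2 and the Ctl libraries and nearer to Ctl. TSLPR-negative Mi2 against TSLPR WT Mi2 gave a log2 change of 0.94 ± 0.26 SE (limma, adjusted p = 0.109) and TSLPR-negative Mi2 against Ctl gave -0.16 ± 0.26 SE (limma, adjusted p = 0.879). Neither passed, although the first did without Ctl replicate 1 (adjusted p = 0.047) and with the replicate block (adjusted p = 0.00506), and with 1 TSLPR-negative library the fit assumed that it varies like the other groups.

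Genes beside Igf2r on chromosome 17 were also measured in Tregs and were named after their values were seen. Airn had 79.4 normalized reads in TSLPR-negative Mi2, 27.3 and 16.9 in TSLPR WT Mi2 and 100.6 and 115 in Ctl Tregs, and it fell in TSLPR WT Mi2 against Ctl (log2 change -2.27 ± 0.41 SE, limma, adjusted p = 9.63e-04). Slc22a2, an organic cation transporter gene of the same domain, had 97.9 in TSLPR-negative Mi2, 11.5 and 34.8 in TSLPR WT Mi2 and 103 and 124 in Ctl Tregs, and it also fell in TSLPR WT Mi2 against Ctl (log2 change -2.43 ± 0.48 SE, limma, adjusted p = 0.00184). For both genes the TSLPR-negative library lay above both TSLPR WT Mi2 libraries and below both Ctl libraries. The 5 B-cell markers summed to 896 normalized reads in the TSLPR-negative library, 778 and 958 in the TSLPR WT Mi2 libraries and 4116 and 1913 in the Ctl libraries. In the keratinocyte list, whose sum in Tregs is nearly all Itga6, an integrin gene that T cells also express, Itga6 had 8231 normalized reads in TSLPR-negative Mi2, 4385 and 4925 in TSLPR WT Mi2 and 8499 and 7718 in Ctl Tregs. In the endothelial list, whose sum in Tregs is nearly all Pecam1, an adhesion gene that T cells also express, Pecam1 had 4182 in TSLPR-negative Mi2, 2128 and 2877 in TSLPR WT Mi2 and 4421 and 4171 in Ctl Tregs. Both, named after their values were seen, were lowest in the TSLPR WT Mi2 libraries, as Igf2r was, and 4 of the 8 keratinocyte markers were at 0 in every Treg library. The 6 Langerhans and dendritic cell markers summed to 3763 in TSLPR-negative Mi2, 4441 and 5937 in TSLPR WT Mi2 and 13706 and 8708 in Ctl Tregs. The part of other cells in the values of Igf2r, Airn and Slc22a2 was not tested.

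Gnas was the most abundant of the genes per kilobase in every Treg library. It had 11446 normalized reads in TSLPR-negative Mi2, 11183 and 12826 in TSLPR WT Mi2 and 8485 and 9925 in Ctl Tregs. TSLPR WT Mi2 lay above Ctl in both libraries without passing the test (log2 change 0.38 ± 0.21 SE, limma, adjusted p = 0.194). Of its 9 RefSeq transcripts in the table, the 1 that ends earliest lies at chr2:174123360-174126303. It had 0.84 normalized reads in TSLPR-negative Mi2, 0 in both TSLPR WT Mi2 and 0 and 0.8 in Ctl Tregs. The transcript at chr2:174109821-174163585 also ends before the rest. It had 541 normalized reads in TSLPR-negative Mi2, 521 and 609 in TSLPR WT Mi2 and 308 and 488 in Ctl Tregs, and was not tested on its own. The 7 others share their last exons and could not be told apart.

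Osbpl5 had 609 normalized reads in TSLPR-negative Mi2, 802 and 704 in TSLPR WT Mi2 and 548 and 626 in Ctl Tregs. It did not pass in TSLPR WT Mi2 against Ctl (log2 change 0.36 ± 0.23 SE, limma, adjusted p = 0.265), although those libraries did not overlap, as in 65.6% of all genes tested. Igf2 had 38.0 normalized reads in TSLPR-negative Mi2, 4.41 and 20.9 in TSLPR WT Mi2 and 27.2 and 16.0 in Ctl Tregs, with overlapping libraries of the last 2 groups (log2 change -1.01 ± 0.66 SE, limma, adjusted p = 0.279). Rasgrf1 had 24.5 normalized reads in TSLPR-negative Mi2, 103 and 2.99 in TSLPR WT Mi2 and 1.18 and 5.61 in Ctl Tregs. For this transcript, of 4199 bases, 1 TSLPR WT Mi2 library stood far above all others and the second lay within the Ctl range (log2 change 2.43 ± 1.11 SE, limma, adjusted p = 0.12). The Rasgrf1 transcript of 995 bases had 15.2 normalized reads in TSLPR-negative Mi2, 32.6 and 5.97 in TSLPR WT Mi2 and 1.18 and 2.41 in Ctl Tregs. There both TSLPR WT Mi2 libraries lay above both Ctl libraries, and this was not tested. Without TSLPR WT Mi2 replicate 2, Rasgrf1 (log2 change 4.78, adjusted p = 2.56e-08) and Igf2 (log2 change -2.02, adjusted p = 0.0298) both passed by limma, with the remaining TSLPR WT Mi2 library assumed to vary like the other groups. The Rasgrf1 difference also passed with edgeR (adjusted p = 0.019) and DESeq2 (adjusted p = 0.00802) on recovered reads.

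In TSLPR-negative Mi2 against TSLPR WT Mi2 Tregs, 0 of the 5 tested genes passed by limma, where 0.942% of all genes did, and 2 had an unadjusted p under 0.05. Without TSLPR WT Mi2 replicate 2, Igf2 passed (adjusted p = 0.0215). By edgeR and by DESeq2 the count was 0 as well. In TSLPR-negative Mi2 against Ctl Tregs, 0 of 5 passed by limma, edgeR or DESeq2, where 3.15% of all genes passed by limma, and 0 had an unadjusted p under 0.05. Without TSLPR WT Mi2 replicate 2, Rasgrf1 passed there (adjusted p = 0.0112). Both comparisons share libraries with the first, so the 3 are not independent.

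Per kilobase, the order in each Treg library was Gnas, Igf2r and then Osbpl5. Gnas had 6610 normalized reads per kb in TSLPR-negative Mi2, 6460 and 7410 in TSLPR WT Mi2 and 4900 and 5730 in Ctl Tregs. Igf2r had 779 per kb in TSLPR-negative Mi2, 362 and 455 in TSLPR WT Mi2 and 830 and 914 in Ctl Tregs. Osbpl5 stayed between 138 and 202 per kb in the 5 libraries.

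Of the imprinted genes outside the set, 30 could be tested in Tregs, and in TSLPR WT Mi2 against Ctl 6 rose, 8 fell and 16 did not pass. That is 46.7% called beside 27.7% of all genes, with a median log2 change of -0.0471 beside -0.00832. Dlk1, a paternally expressed Notch-family ligand, had 68.4 normalized reads in TSLPR-negative Mi2, 160 and 167 in TSLPR WT Mi2 and 15.4 and 10.4 in Ctl Tregs. It rose in TSLPR WT Mi2 against Ctl (log2 change 3.59 ± 0.41 SE, limma, adjusted p = 2.58e-05). It was also the 1 of 30 imprinted genes outside the set that passed in TSLPR-negative Mi2 against Ctl (log2 change 2.34 ± 0.50 SE, limma, adjusted p = 0.0189), a call that ended without Ctl replicate 2 (adjusted p = 0.0521) and without the intensity trend (adjusted p = 0.0709). In TSLPR-negative Mi2 against TSLPR WT Mi2, 0 of 30 passed by limma, edgeR or DESeq2, and 10 had an unadjusted p under 0.05 by limma.

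The 3 genes with the next smallest p all fell in TSLPR WT Mi2 against Ctl Tregs. Peg13, a paternally expressed noncoding RNA, had 290.2 and 382 normalized reads in TSLPR WT Mi2, against 1049 and 1424 in Ctl Tregs (log2 change -1.87 ± 0.25 SE, limma, adjusted p = 8.13e-05). Zrsr1, a paternally expressed retrogene related to splicing factors, had 228 and 270 in TSLPR WT Mi2, against 683 and 670 in Ctl Tregs (log2 change -1.44 ± 0.25 SE, limma, adjusted p = 5.99e-04). Inpp5f, an inositol phosphatase gene with an imprinted transcript, had 1473 and 1407 in TSLPR WT Mi2, against 3142 and 3038 in Ctl Tregs (log2 change -1.10 ± 0.20 SE, limma, adjusted p = 9.08e-04). In none of these genes did the libraries of the groups overlap, as in 65.6% of all genes tested, and they were named for their small p.

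Of the insulin-like growth factor pathway outside the set, 7 genes could be tested in Tregs, and in TSLPR WT Mi2 against Ctl 3 fell and none of the 7 rose by limma, which is 42.9% called beside 27.7% of all genes. Igf1r had 2142 normalized reads in TSLPR-negative Mi2, 1056 and 1125 in TSLPR WT Mi2 and 3267 and 3224 in Ctl Tregs, and it fell in TSLPR WT Mi2 against Ctl (log2 change -1.57 ± 0.20 SE, limma, adjusted p = 5.5e-05). Insr (log2 change -0.76, adjusted p = 0.0204) and Igfbp4 (adjusted p = 0.00788) fell too by the same limma fit, and Igfbp4 had 274 and 1488 normalized reads in TSLPR WT Mi2 against 2498 and 2623 in Ctl Tregs. These 3 genes were named after their values were seen, and Igfbp4 lost its call with DESeq2 and without the intensity trend. Of the imprinting machinery, 20 genes could be tested in TSLPR WT Mi2 against Ctl Tregs, of which 6 rose and 3 fell, or 45.0% called beside 27.7% of all genes. Uhrf1, which brings Dnmt1 to replicating DNA, had 3954 and 4932 normalized reads in TSLPR WT Mi2 against 989 and 656 in Ctl Tregs (limma, adjusted p = 9.22e-06, named after its values were seen).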

How the data were processed

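The members and the gene lists were chosen with earlier results of these data known. The submitters' processing notes name bcl2fastq 1.8.3, STAR, DESeq2 and the builds mm9 and mm10, with no role for each. Per the file headers, the Treg table is HOMER output for RefSeq transcripts (mm9, exon reads). The command names 7 libraries, of which 5 are in the table. The counting program of the epidermal table is not given in the sources used here.

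The deposited signal in both tables is the authors' normalized read count. Each of the 9 columns was divided by its fitted value of 1 read, which gave whole reads (tolerance 0.05) for 100% of values above 0. In Tregs a gene was represented by its transcript with the highest mean.

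The design named a test for normalized values, which was used: limma 3.58.1 (R 4.3.3) with an intensity trend on log2(value + 1), on genes with a mean of at least 10 over the fitted libraries, 14461 in epidermis and 12206 in Tregs. Fold changes on this scale understate changes of low genes. p-values were adjusted over all genes tested (Benjamini-Hochberg), and a gene was called under 0.05, two-sided. One fit covered the 4 epidermal libraries and another the 5 Treg libraries. The fits were tested on simulated data. Folds against 0 reads use a floor of 3 reads in each library. Alternatives were edgeR 4.0.16 and DESeq2 1.42.0 on recovered reads, other filters, pseudocounts and scalings, a replicate block, the longest transcript, and leaving out each library.

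Named genes were all members, called imprinted genes outside the set with the largest changes or smallest p, up to 6 of each pathway or neighbour list with the smallest epidermal p, the most abundant markers, the 5 genes nearest to H19, and Chd4. Sequences are from RefSeq (GRCm38.p6).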

Additional observations from a re-analysis of the deposited data

Results flagged for a closer look

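Igf2r and Osbpl5 were opposite in direction in the epidermal and the Treg comparison, without overlap of the groups in either. Igf2 and Rasgrf1 differed in sign as well, but with overlapping libraries in Tregs. The log2 change in epidermis and in TSLPR WT Mi2 against Ctl Tregs was 5.10 and -1.01 for Igf2, and -3.65 and 2.43 for Rasgrf1. Of the members tested in Tregs, Gnas alone kept its direction. Igf2r was higher in both Mi2 than in both WT epidermal libraries, while in Tregs its log2 change in TSLPR WT Mi2 against Ctl was -1.10, with both TSLPR WT Mi2 libraries under both Ctl libraries. Osbpl5 was lower in both Mi2 than in both WT epidermal libraries, while its log2 change in TSLPR WT Mi2 against Ctl Tregs was 0.36, with both TSLPR WT Mi2 libraries above both Ctl libraries. The difference between the tissues was not tested for any of these genes, and the tables were normalized separately. The changes of Osbpl5, Igf2 and Rasgrf1 in Tregs did not pass the limma test.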

How the results depend on the processing

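Of the 72 imprinted genes, 14 were called in epidermis, and 8 without WT replicate 1 or without WT replicate 2, the lowest of the leave-one-out range of 8 to 17. Of those 14, 10 are the members chosen on these values, so the count is a description. Outside the set, 3 rose and 1 fell, and these counts ranged from 1 to 5 and from 0 to 3 over 12 alternatives. In TSLPR WT Mi2 against Ctl Tregs, 1 member was called, against 0 with no filter, 2 with edgeR, 2 with DESeq2, 2 with the replicate block and up to 3 without TSLPR WT Mi2 replicate 2. In TSLPR-negative Mi2 against TSLPR WT Mi2, the count of 0 became 1 (Igf2r) with the replicate block and ranged from 0 to 1 when each library was left out. In TSLPR-negative Mi2 against Ctl it also ranged from 0 to 1. The second member called by edgeR, DESeq2 and the block was Rasgrf1. With no filter, limma called 0 of 16831 genes in any Treg comparison, while 5043 had an unadjusted p under 0.05 in TSLPR WT Mi2 against Ctl, so every Treg call ended there, and Igf2r had an adjusted p of 0.0697; the cause was not tested. Igf2r in TSLPR WT Mi2 against Ctl ranged from -1.27 to -0.94 on the log2 scale over 13 alternatives. Same-numbered libraries deviated together with a correlation of 0.123 in epidermis and 0.0917 in Tregs, from 2 pairs each, so the numbers were not taken to pair the libraries. Leaving mitochondrial genes out of the scaling moved the epidermal median of all genes to -0.266, and leaving out the 50 most abundant genes moved it to -0.16, against -0.0293. No member changed direction in epidermis or in TSLPR WT Mi2 against Ctl Tregs. Values that did not pass changed sign for Rasgrf1 in TSLPR-negative against TSLPR WT Mi2, from a log2 change of 0.32 to -1.15 with edgeR, -1.16 with DESeq2 and -2.03 without TSLPR WT Mi2 replicate 2, for Gnas in the same comparison, from -0.0654 to 0.0335 without that replicate, and for Osbpl5 in TSLPR-negative Mi2 against Ctl, from 0.056 to -0.00697 with DESeq2 and a range of -0.0395 to 0.151 when each library was left out. In Tregs, H19, Mir675, Slc38a4, Phlda2 and Ascl2 had too few reads for the test.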
